A study of Marchantia polymorpha with 12 samples.

Results

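MpBBX2 (Mp3g20050) is 1 of 6 genes with a B-box symbol in the liverwort Marchantia polymorpha, and 1 row among the 18255 genes of the deposited table of normalized read counts. It was chosen by its measured increase under UV-B in the Mphy5 mutant, which is large, so its values in that line are given as a description and without a test. RNA came from 7-day-old gemmalings, which are young thalli grown from gemmae, the plant's asexual propagules. The groups were the male wild type Tak-1 without UV-B, Tak-1 with 3 h of UV-B, the Mphy5-1 mutant (called Mphy5 here) without UV-B, and Mphy5 with 3 h of UV-B, with 3 libraries each. All plants were raised in white light of 50 µmol per square metre per second, and UV-B was added to it at 1.5 µmol. The mutant is represented by 1 line, and its lesion is not described in the labels. It is also not stated whether treated and untreated plants were collected at the same hour. If the hours differed, the hour of collection and the UV-B cannot be told apart.

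B-box proteins are zinc-finger transcription regulators. In Arabidopsis, the UV-B receptor UVR8 binds the ubiquitin ligase COP1 when it absorbs UV-B, which allows the bZIP factor HY5 to accumulate and to switch on protective genes. Several Arabidopsis B-box proteins work together with HY5 on its target promoters, others oppose it, and several are marked for breakdown by COP1. The labels and files do not say which of these roles, if any, MpBBX2 holds. In the text, MpBZIP1 (Mp1g16800) is taken as the HY5 gene of this species from published nomenclature.

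The libraries held 44787979 to 67532310 recovered reads, and no library stood apart: correlations over tested genes were 0.9845 to 0.9883 within groups and at most 0.9821 between them. Nothing in the labels says that replicates were separate cultures, and the p-values then cover only differences among these libraries, which may be technical. As a check of the labelled sex, the 63 genes of the female U chromosome had 79 to 171 reads per library and the 92 genes of the male V chromosome 127761 to 188795. Transcript of the gene that names the mutant does not check the label: the untreated means of MpBZIP1 were 1339 normalized reads in Tak-1 and 1545 in Mphy5. In whole plants, more transcript per cell and more cells that express a gene cannot be told apart.

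MpBBX2 was a low transcript without UV-B, an intermediate one in wild type under UV-B, and a much higher one in Mphy5 under UV-B. The 3 untreated wild type libraries held 54.1, 84.1 and 83.1 normalized reads (73.8 ± 17, SD, n = 3), from 59, 84 and 81 recovered reads. In Mphy5 without UV-B the libraries held 111.7, 93.6 and 81.4 normalized reads (95.6 ± 15.2, SD, n = 3), from 103, 120 and 100 reads. These untreated groups overlap, since the lowest Mphy5 library lies below 2 of the wild type libraries.

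With 3 h of UV-B, wild type libraries reached 692.8, 667.1 and 601.9 normalized reads (653.9 ± 46.9, SD, n = 3), from 571 to 596 recovered reads. The Mphy5 libraries under UV-B stood at 3483, 3582 and 3236 normalized reads (3434 ± 179, SD, n = 3), from 2709 to 4425 reads. Every treated library lay above every untreated one of both lines, and every treated Mphy5 library above every treated wild type library. In order of level the groups were thus wild type and Mphy5 without UV-B, which did not separate beyond their spread, then wild type with UV-B, then Mphy5 with UV-B.

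**Figure D1:**
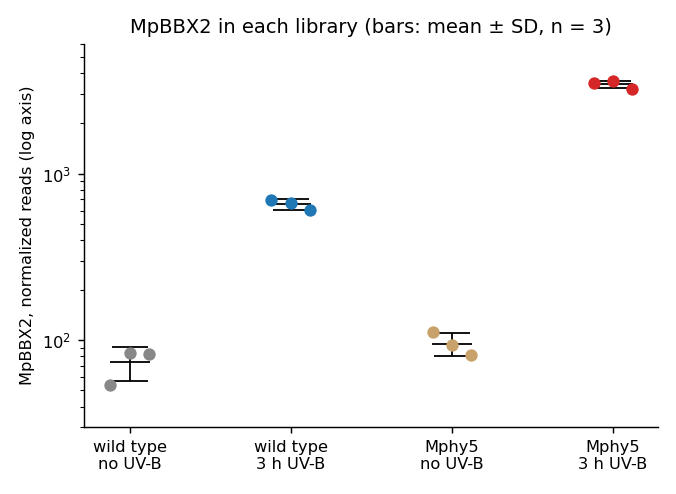
Normalized reads of MpBBX2 on a log axis for each library of the 4 groups, with horizontal marks at the mean and whiskers of 1 SD (n = 3). The untreated groups overlap between 81.4 and 84.1 reads, wild type under UV-B lies at 601.9 to 692.8, and Mphy5 under UV-B at 3236 to 3582.

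The spread between libraries was widest where the gene was lowest. The SD was 23.1% of the mean in wild type without UV-B and 15.9% in Mphy5 without UV-B, where counting error alone would give about 11.6% and 9.6%. Under UV-B the SD was 7.2% of the mean in wild type and 5.2% in Mphy5, against counting errors of 4.1% and 1.7%. The untreated levels are therefore the less precise end of each UV-B ratio, and wild type replicate 1 without UV-B, with 59 reads, is the lowest of all.

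The response of wild type compares the means of wild type libraries only, although its SE and p take their spread from all 12 libraries, those of Mphy5 included. MpBBX2 rose 8.91-fold there on the log2(value + 1) scale (log2 fold change 3.16, SE 0.15, limma adjusted p = 1.4e-12), with all 3 treated libraries above all 3 untreated ones. A fit of the 6 wild type libraries alone, which by construction leaves the log2 fold change as it is, gave a limma adjusted p of 9e-09. A call in this direction was made for 14.6% of the 15999 tested genes, and in either direction for 29.2%. By pairs of libraries the treated level was 7.16 to 12.8 times the untreated one, and the difference of the group means was 580.2 normalized reads. By size of rise on that scale the gene ranked 33rd of 15999 genes in wild type, and 19th of the 12313 whose highest group mean was at least 50 normalized reads.

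In Mphy5, the increase that led to the choice of the gene was larger in every measure. The log2 fold change was 5.16 (SE 0.15), or 35.8-fold, with pairs of libraries at 29 to 44 times, and the difference of the group means was 3338 normalized reads. The increment in Mphy5 was thus 5.75 times that in wild type in reads, and the fold 4.05 times as large as a ratio of means. On the log2 scale the responses of the lines differed by 2.01 (SE 0.22), a value that includes the libraries used for the choice and carries no test here.

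Between the lines, the gap was wider under UV-B. Without UV-B the Mphy5 mean was 1.3 times that of wild type, and pairs of libraries ran from 0.968 to 2.06 times. Leaving out untreated wild type replicate 1 lowered this log2 difference from 0.39 (SE 0.15) to 0.18. With UV-B the Mphy5 mean was 5.25 times that of wild type, with pairs at 4.67 to 5.95 and a log2 difference of 2.39 (SE 0.15). That difference was 2.33 to 2.43 when any 1 library was left out.

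Among the 12313 genes with a group mean of at least 50 normalized reads, MpBBX2 came 2nd by increase in Mphy5 on the log2(value + 1) scale. The gene above it was Mp6g14520, which has no symbol, with a log2 fold change of 5.23. The next values on this scale were those of Mp4g18590 (4.94), Mp2g25900 (4.89) and Mp2g16790 (4.49), likewise without symbols. Mp4g18590 held 0, 0 and 0.81 normalized reads in untreated Mphy5 and 36.9 on average with UV-B, so its value depends on the 1 that was added, and its place relative to MpBBX2 is not fixed by these data. These values are set by the same ranking and are descriptions.

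Among these 5 leading genes, the treated lines compared differently. The means of Mp6g14520 were 1085 (untreated) and 27033 (treated) normalized reads for wild type, and 600.6 and 22586 for Mphy5, so its treated level was a little lower in the mutant (log2 difference -0.26). Mp2g25900 also stood lower in treated Mphy5 (-0.43), and Mp4g18590 lower still (-1.04), with 62.7 to 88.3 normalized reads in treated wild type and 30.8 to 44.0 in treated Mphy5. Mp2g16790 was the other leading gene with a higher level in treated Mphy5 (0.78), and it had started lower there without UV-B (-1.75). MpBBX2 had the highest value of the 5 in this comparison, at 2.39, but ranked only 86th by it among the 12313 genes. By the difference of UV-B responses Mp2g16790 stood above it, at 2.53 against 2.01, and MpBBX2 ranked 9th of the 12313.

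The other genes with a B-box symbol were 5, and all 5 were measured and tested. Only 3110 of the 18255 identifiers had a symbol, so B-box genes without one would be missed. In wild type, 3 of the 5 were called under UV-B, 1 up and 2 down, where 29.2% of all tested genes were called. In Mphy5, all 5 were called, 2 up and 3 down, where 31.8% of all tested genes were called. Their log2 fold changes spanned -0.43 to 0.24 in wild type. In Mphy5 they spanned -0.67 to 0.62. The medians were -0.10 and -0.15, beside -0.01 over all tested genes in both lines.

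MpBBX1 (Mp5g05940) moved in the same direction as MpBBX2 at a much smaller scale. Its untreated wild type libraries held 1821, 1874 and 1850 normalized reads and its treated ones 2133, 2222 and 2196 (log2 fold change 0.24, limma adjusted p = 0.00044). In Mphy5 it went from 2225, 2214 and 2281 to 3266, 3204 and 3236 (0.53, adjusted p = 1.3e-08). The untreated mutant was already above untreated wild type (0.28, adjusted p = 0.00017). For MpBBX2 this log2 difference was 0.39 (SE 0.15), less precise, not tested and with overlapping groups.

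MpBBX3 (Mp3g19670) was called under UV-B in the mutant and not in wild type, and the difference itself was called. Wild type libraries held 5355 to 5711 normalized reads without UV-B and 5099 to 5672 with it, which overlap (log2 fold change -0.03, limma adjusted p = 0.79). The untreated Mphy5 libraries held 4432 to 5649 and the treated ones 7127 to 7877 (0.62, adjusted p = 2e-06). Treated Mphy5 was above treated wild type by 0.48 (adjusted p = 7e-05).

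The remaining B-box genes were lower under UV-B or showed no call. MpBBX5 (Mp8g13470) fell in wild type, where untreated libraries held 19370 to 20300 normalized reads and treated ones 14542 to 14968 (log2 fold change -0.43, limma adjusted p = 5e-08). In Mphy5 its untreated range of 20805 to 22188 gave way to 13360 to 13604 (-0.67, adjusted p = 3.6e-11). MpBBX6 (Mp2g16350) was not called in wild type (-0.10, adjusted p = 0.52) but fell in Mphy5, with untreated libraries at 541.6 to 677.8 and treated ones at 428.0 to 440.4 (-0.50, adjusted p = 0.00025).

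MpBBX4 (Mp8g01190) had small falls in both lines. Its log2 fold changes were -0.14 in wild type (limma adjusted p = 0.018) and -0.15 in Mphy5 (adjusted p = 0.01). Leaving out untreated replicate 1 (0.06) or 2 (0.056), or treated replicate 1 (0.053) or 2 (0.058), ended the call in wild type. Leaving out treated replicate 2 (0.075) ended it in Mphy5.

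**Figure D2:**
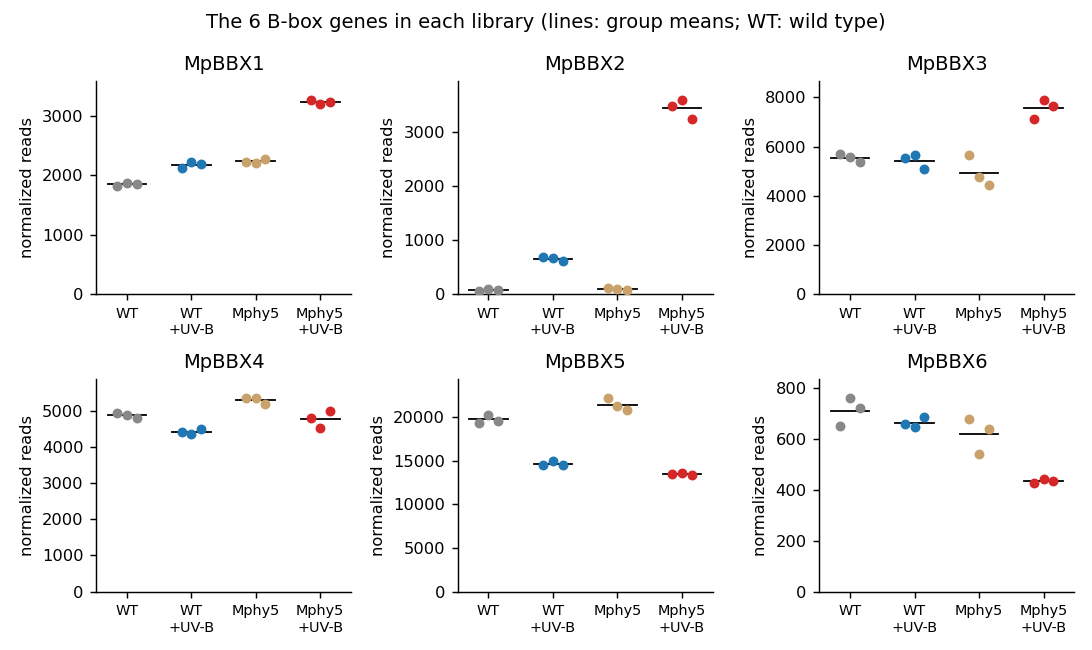
Normalized reads of the 6 B-box genes in each library, with lines at group means and each vertical axis starting at 0 with its own scale. MpBBX2 goes from means of 73.8 and 95.6 to 653.9 and 3434, while MpBBX1 and MpBBX3 reach their highest levels, and MpBBX5 and MpBBX6 their lowest, in Mphy5 under UV-B.

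The difference of responses was tested for these 5 genes, which were listed by their symbols, though with earlier results of these data known. It was called for 3 of 5, where 4.46% of all tested genes were called. The difference was positive for MpBBX3 (0.65, SE 0.10, limma adjusted p = 0.00089) and MpBBX1 (0.29, SE 0.07, adjusted p = 0.013), and negative for MpBBX5 (-0.24, SE 0.06, adjusted p = 0.016), where 1.93% of tested genes had a call in the positive and 2.54% in the negative direction. The call of MpBBX5 ended when untreated wild type replicate 1 was left out (0.05) and in limma without its trend and robust options (0.057). MpBBX6 had a difference of -0.41 (adjusted p = 0.1), which passed without Mphy5 replicate 2 without UV-B (0.045), and MpBBX4 one of -0.01 (adjusted p = 0.96).

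Between the lines without UV-B, 2 of these 5 genes were called, where 24.9% of all tested genes were called. They were MpBBX1 and MpBBX5 (0.12, limma adjusted p = 0.037), and MpBBX5 was no longer called when untreated wild type replicate 1 (0.13) or 3 (0.11), treated wild type replicate 1 (0.05), or untreated Mphy5 replicate 1 (0.12) or 2 (0.08) was left out. The same call ended in a fit of the untreated groups alone (0.054) and in limma without its trend and robust options (0.055). MpBBX4 (0.12, adjusted p = 0.054) was not called, but it passed in edgeR (0.029), in DESeq2 (0.035), with no filter (0.037), with a filter at 5 (0.049), in the fit of the untreated groups alone (0.05) and without treated Mphy5 replicate 2 (0.044). MpBBX3 was not called either (-0.17, adjusted p = 0.087), but it passed as lower in Mphy5 without untreated Mphy5 replicate 1 (-0.27, adjusted p = 0.0014). With UV-B, 4 of 5 were called, where 29.8% of all tested genes were called. MpBBX1 (0.57, adjusted p = 1.4e-08) and MpBBX3 were higher in treated Mphy5 and MpBBX6 lower (-0.61, adjusted p = 5e-05). MpBBX5 was lower by a small margin (-0.12, adjusted p = 0.024), a call that ended after TMM rescaling (0.052) and when treated wild type replicate 1 (0.051) or 2 (0.081) or treated Mphy5 replicate 1 (0.053) or 3 (0.077) was left out. MpBBX4 (0.11, adjusted p = 0.07) was not called with UV-B. It passed with no filter (0.043), after TMM rescaling (0.04) and without treated Mphy5 replicate 2 (0.025).

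The light-signalling genes were listed by their symbols, and a link of MpBBX2 to their pathway was not tested. The list held 14 measured genes, and no gene with a PIF or CUL4 symbol was found in the name table. In wild type under UV-B 8 rose, 1 fell and 5 were not called, and the median log2 fold change was 0.30. In Mphy5 the counts were also 8, 1 and 5, and the median was 0.34, beside -0.01 over all tested genes in each line. The shares of all tested genes called up were 14.6% in wild type and 15.9% in Mphy5.

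Photoreceptor genes had small log2 fold changes. MpUVR8, the UV-B receptor, was at 6027 to 6446 normalized reads in untreated wild type and at 5979 to 6880 in the other groups, with no call in any of the 5 comparisons. MpPHY, the phytochrome gene, rose in wild type (0.52, limma adjusted p = 1.5e-08) and Mphy5 (0.53, adjusted p = 7.9e-09), with a difference of 0.01. MpCRY, a cryptochrome gene, rose in wild type (0.18, adjusted p = 0.0014) and had 0.05 in Mphy5 (adjusted p = 0.46), but the difference was not called (adjusted p = 0.22, and 0.043 with no filter). The phototropin gene MpPHOT had 0.01 in wild type and 0.14 in Mphy5. The latter was called (adjusted p = 0.033) but lost its call in 6 alternatives, namely no filter (0.079), limma without its trend and robust options (0.094), and leaving out untreated Mphy5 replicate 2 (0.1) or 3 (0.15) or treated replicate 2 (0.11) or 3 (0.078).

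Of the genes named for signalling components, MpBZIP1, MpCOP1, MpDET1, MpRUP and MpSPA1 had log2 fold changes of 0.42 to 2.72 in wild type. In Mphy5 theirs were 0.63 to 3.82. MpDDB1, also a signalling component, had 0.02 in wild type (limma adjusted p = 0.78) and 0.01 in Mphy5 (adjusted p = 0.86). The treated mean of MpBZIP1 was 4.5 times the untreated one in wild type and 10.4 times in Mphy5. For MpBBX2 the corresponding ratios of means were 8.86 and 35.9. MpCOP1 and MpDET1, whose Arabidopsis relatives restrain light responses, and MpRUP, whose Arabidopsis relatives switch UVR8 off, had log2 fold changes of 1.09, 0.89 and 2.72 in wild type. Their values in Mphy5 were 2.11, 1.81 and 3.82. MpSPA1, a partner of COP1 in Arabidopsis, rose by 0.42 in wild type and 0.63 in Mphy5.

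The rest of the list held small falls, genes without a call and 1 large rise. MpGI, a clock and flowering gene in Arabidopsis, had -0.15 in both lines, and its call in wild type (limma adjusted p = 0.018) ended when untreated replicate 2 (0.1) or treated replicate 1 (0.097) of that line was left out. Its call in Mphy5 (adjusted p = 0.014) ended likewise with untreated replicate 2 (0.056) or treated replicate 3 (0.074). MpFKF, MpFHY1 and MpDDB1 had log2 fold changes between -0.15 and 0.08 in both lines and were not called, although MpFHY1 passed in Mphy5 with no filter (0.014) and in limma without its trend and robust options (0.031). MpCRY-DASH, related to cryptochromes and DNA photolyases, rose by 2.23 in wild type and 2.27 in Mphy5, from a lower level in the mutant.

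**Figure D3:**
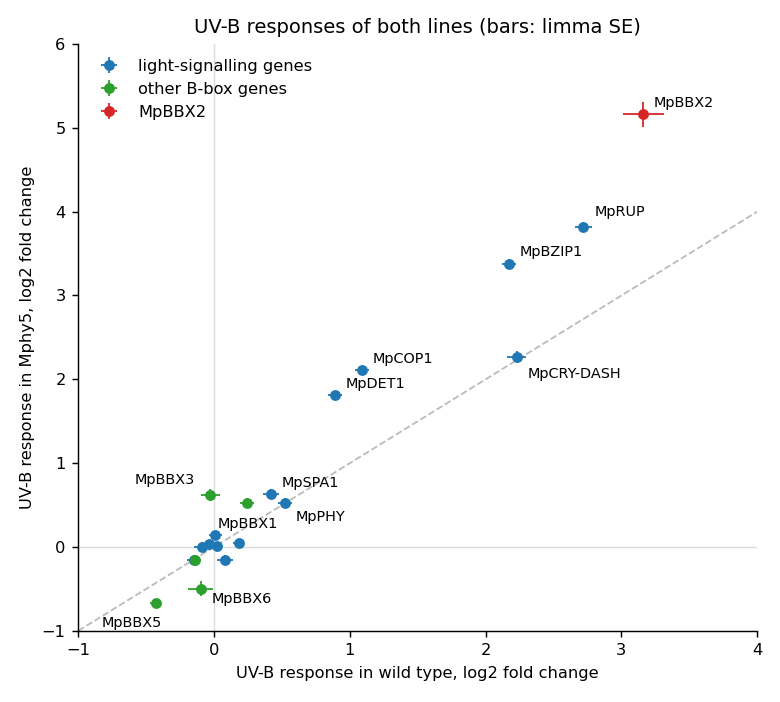
Log2 fold changes under UV-B in wild type (horizontal) and in Mphy5 (vertical) for MpBBX2, the other 5 B-box genes and 14 light-signalling genes, with limma standard errors as bars and a dashed line of equal response. MpBBX2 lies at 3.16 and 5.16, MpBZIP1, MpRUP, MpCOP1 and MpDET1 also lie above the line, and MpCRY-DASH and MpPHY lie on it.

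The difference of responses was called for 4 of the 14 light-signalling genes, all in the direction of a larger rise in Mphy5, where 1.93% of all tested genes were called in that direction. They were MpBZIP1 (1.21, SE 0.07, limma adjusted p = 1.1e-08), MpRUP (1.11, SE 0.09), MpCOP1 (1.02, SE 0.07) and MpDET1 (0.92, SE 0.08). The untested value of MpBBX2 stands beside them at 2.01 (SE 0.22). Without UV-B these 4 genes did not share a direction between the lines, since MpBZIP1 was higher in Mphy5 (0.21, adjusted p = 0.0056) and MpRUP lower (-0.81, adjusted p = 3.9e-09). MpCOP1 was also lower there (-0.20, adjusted p = 0.0039). MpDET1 (-0.17, adjusted p = 0.024) lost its call in 6 alternatives, namely no filter (0.08), limma without its trend and robust options (0.088), and leaving out untreated wild type replicate 1 (0.052) or 2 (0.13) or untreated Mphy5 replicate 2 (0.081) or 3 (0.078). Between the lines, 5 of the 14 light-signalling genes were called without UV-B and 9 with it, where 24.9% and 29.8% of all tested genes were called. In Mphy5, 1 was higher and 4 lower without UV-B, and 6 were higher and 3 lower with it. The count with UV-B was 7 to 9 in the alternatives. There MpSPA1 (0.15, limma adjusted p = 0.044) lost its call in 9 of 23 alternatives, MpPHOT (0.15, adjusted p = 0.033) in 6 and MpFHY1 (-0.23, adjusted p = 0.011) in 1.

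Likeness to MpBBX2 was measured as Pearson's r on log2(value + 1) over the 12 libraries, among 12312 other genes with a group mean of at least 50 normalized reads. The 12 points fall into the 4 groups, so r mainly compares the order and spacing of group levels, and it takes no account of the size of the change. In all, 3 genes reached an r of 0.99, 148 reached 0.95 and 479 reached 0.9. MpBZIP1 ranked 2nd with r = 0.9949, and between 1st and 3rd when any 1 library was left out. By distance between the centred values, which does count size, it was 2nd as well, and by Spearman's rho it was 54th (0.937).

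The other genes most like MpBBX2 shared its order of the treated groups, with smaller changes, whereas the untreated means of Mp1g12310 and Mp7g12120 were slightly lower in Mphy5 than in wild type. The first was Mp1g25850, without a symbol, at r = 0.9967, with untreated and treated means of 1099 and 2269 normalized reads for wild type and of 1136 and 3768 for Mphy5. Mp4g22490 (r = 0.9911), Mp1g12310 (0.9892), Mp8g00920 (0.9890), Mp7g17120 (0.9882), Mp4g23140 (0.9882) and Mp7g12120 (0.9880) also lacked symbols. Genes with symbols were MpFAD3, named as a fatty acid desaturase (0.9890), and MpLOVA (0.9873). Leaving aside MpBZIP1, their log2 fold changes were 0.30 to 1.41 in wild type. In Mphy5 they were 0.47 to 2.10, so both ranges lay below the values of MpBBX2. Of these 10 genes, 3 were still among the first 10 when untreated wild type replicate 1 was left out. The count was 5 without treated wild type replicate 2 and 5 without untreated Mphy5 replicate 1. Membership of the 10 thus depends in part on single libraries.

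**Figure D4:**
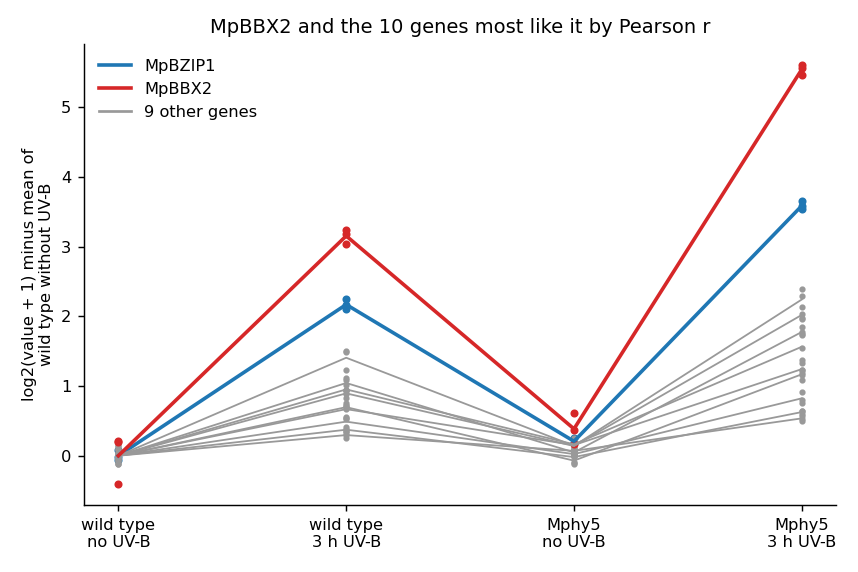
Log2(value + 1) of MpBBX2 and the 10 genes with the highest Pearson r to it, relative to each gene's mean in wild type without UV-B, with points for libraries and lines through group means. All 11 genes share the order of the groups under UV-B, and MpBBX2 and MpBZIP1 show the largest steps.

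Of the other B-box and light-signalling genes, MpDET1 (r = 0.986) and MpCOP1 (0.985) ranked 17th and 22nd in likeness to MpBBX2. MpSPA1 had an r of 0.946, MpRUP of 0.918 and MpBBX1 of 0.876. The untreated mean of MpRUP was 980.7 normalized reads in the mutant and 1722 in wild type, where MpBBX2 had overlapping groups. MpBBX5 had the lowest r of the 19 genes, at -0.940.

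The genes beside MpBBX2 on chromosome 3 had small log2 fold changes or very few reads. Mp3g20040, its neighbour on one side, was at 0 in every library, and Mp3g20060 on the other side held 0 to 16.4 normalized reads. Further out, Mp3g20010 and Mp3g20030 stayed between 834.1 and 1044 normalized reads in all libraries and were not called in any comparison. MpHDAC9, named as a histone deacetylase, rose in Mphy5 under UV-B by 0.28 (limma adjusted p = 0.0066) and had 0.19 in wild type (adjusted p = 0.065), and the difference of 0.09 was not called (adjusted p = 0.77). Its level was higher in Mphy5 both in untreated plants (0.25, adjusted p = 0.016) and under UV-B (0.34, adjusted p = 0.0016). Mp3g20080 fell in Mphy5 by 0.37 on the log2 scale (limma adjusted p = 0.00021) and had -0.05 in wild type (adjusted p = 0.62), and the difference of -0.32 was not called (adjusted p = 0.075). Without UV-B it was higher in Mphy5 (0.30, adjusted p = 0.0025).

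**Figure D5:**
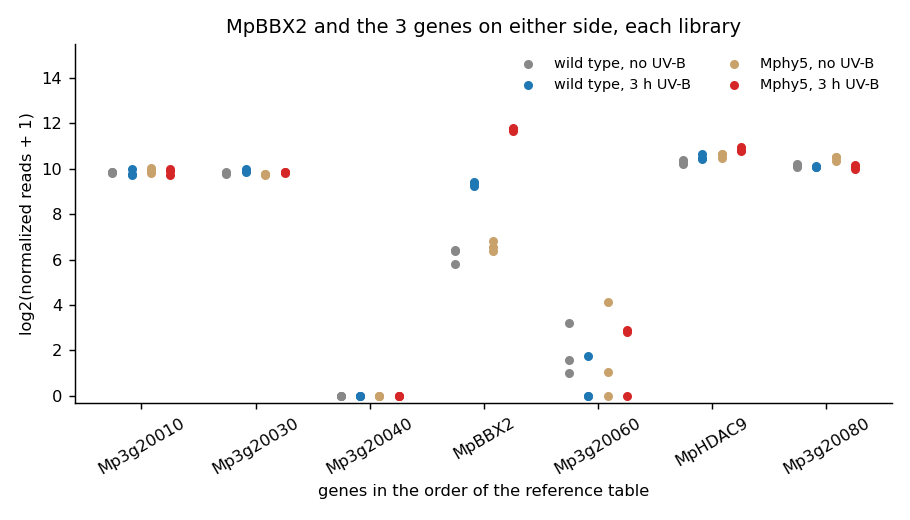
Log2(normalized reads + 1) in each library for MpBBX2 and the 3 genes on either side of it, in the order of the reference table. The 4 groups of MpBBX2 span 54.1 to 3582 normalized reads, while those of Mp3g20010 and Mp3g20030 stay between 834.1 and 1044.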

How the data were processed

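The deposited table gives, per gene and library, a normalized signal that the authors made by dividing each count of reads by a size factor of its library. Libraries were read as single ends of 100 bases, per the labels' protocols, and STAR 2.7.4 is the aligner named, per the submitters' processing notes. The build, annotation and counter, and whether strand or multiply matching reads were used, are not stated in the labels or the file. In every library, 100% of nonzero values up to 1500 were whole multiples of 1 step within 0.02 reads, so whole reads were recovered. The step of wild type replicate 2 without UV-B lay close to 1 (1.00095), but with a step of exactly 1 only 31.3% of its values would be whole. For counting error alone, a floor of 3 reads equals 2.34 to 3.58 normalized reads. Pairs of libraries within a group differed by more than sampling noise (chi-square per gene of 7.9 to 24), so none was treated as a library deposited more than once.

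Tests were made with limma 3.58.1 under R 4.3.3. A model of 4 group means was fitted to log2(value + 1) of all 12 libraries, using the trend and robust options. Of all genes, 15999 reached a value of 1 or more in 3 or more libraries and were tested. Called means a Benjamini-Hochberg adjusted p below 0.05 over all tested genes. Fold changes on this scale understate the change of low genes. edgeR 4.0.16 and DESeq2 1.42.0 on recovered reads were alternatives, and all 3 fits were tested on simulated data. Plots used matplotlib 3.10.9.

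Names came from RefSeq's table of assembly MpTak2_v7.1, which matched 18082 of 18255 identifiers (99.1%) and gave names and gene order only. MpBBX2 and the gene lists were chosen with earlier results of these data known. Named genes are all members of both lists, the genes ranked around MpBBX2 by increase in Mphy5, the 10 most like it and the 3 on either side. In the light-signalling list, a symbol that already ends in a digit was matched exactly, so that MpBZIP10 or MpCOP10 did not enter. Same-numbered libraries did not deviate together, so the replicate number was not used as a block.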

Additional observations from a re-analysis of the deposited data

Results flagged for a closer look

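Of the 5 other B-box and 14 light-signalling genes, 7 had a UV-B response that differed between Mphy5 and wild type. The test was that of the difference itself (limma, adjusted over all tested genes, 4.46% of which were called). Both lists were made with earlier results of these data known. In the B-box list, the response of MpBBX3 was larger in Mphy5 by 0.65 on the log2 scale and that of MpBBX1 by 0.29. That of MpBBX5 had a difference of -0.24, a call that ended in 2 of 22 alternatives. In the light-signalling list, the differences were 1.21 for MpBZIP1, 1.11 for MpRUP, 1.02 for MpCOP1 and 0.92 for MpDET1.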

How the results depend on the processing

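The rise of MpBBX2 in wild type kept its direction and its call in all 23 alternatives, with log2 fold changes of 3.09 to 3.17 under 11 other settings and of 2.95 to 3.26 with 1 library left out, and adjusted p of at most 4.9e-06. Several of these alternatives could not move the fold, among them a left-out Mphy5 library, another filter, the fit of wild type alone and the replicate block. The median-ratio rescaling repeats the deposited scaling. With the replicate number as a block the rise in wild type was 3.16 (limma adjusted p = 2.2e-11). The block moved 1 single-gene result across the threshold, that of MpFKF between the untreated lines (limma adjusted p = 0.031). It was 1 of 110 results compared, which include untested values and counts of calls. The 18 correlations between same-numbered libraries were -0.017 to 0.054, and 6 of 12 libraries correlated best with their own number. Its increase in Mphy5 ranged over 5.05 to 5.28 with 1 library left out, the difference of responses over 1.90 to 2.21, and the untreated difference between lines over 0.18 to 0.49. The count of other B-box genes called between the untreated lines was 2, but 1 in limma without trend and robust options, 3 with no filter, with a filter at 5, in edgeR and in DESeq2, and 1 to 3 with 1 library left out. Of the 10 genes most like MpBBX2, 0 were shared with the first 10 by Spearman's rho, 1 with the first 10 by distance, and 3 to 9 with 1 library left out. Over all genes, the 714 calls of a difference of responses were 332 in limma without trend and robust options and 395 without a filter, and the cause was not tested. Among single-gene results of both lists, 2100 comparisons with an alternative kept their status, whether called or not called. A call was lost in 51 and gained in 15. In untreated wild type, 59 to 84 reads limit the precision of the MpBBX2 folds.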
